A study of Mus musculus with 8 samples.

Results

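The Reg (regenerating) genes of the mouse encode small secreted C-type lectins. The 6 members described here, Reg1, Reg2, Reg3a, Reg3b, Reg3g and Reg4, were taken by symbol from a table of 52195 genes, and each was followed over all 8 libraries of the series. Polyadenylated RNA was sequenced from bulk small intestine, lung, kidney and liver of C57BL/6 mice aged 6 to 10 weeks, with 2 libraries per tissue. By the study's methods the animals were males of the C57BL/6J substrain, all tissues were excised from each mouse and the replicates were biological, but neither the labels nor the methods link a replicate number to a mouse. No genetic change, agent or segment of the small intestine is named for any group, and the p-values below measure the spread between these libraries. In bulk tissue, fewer cells of a type and less RNA per cell cannot be told apart.

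Reg proteins fall into subgroups with separate sites of production. Reg1 and Reg2 are classically products of the exocrine pancreas, where Reg1 protein is known as lithostathine or pancreatic stone protein. The Reg3 proteins are released by intestinal epithelium into the lumen, where Reg3b and Reg3g bind bacterial surfaces and kill bacteria, and signalling through interleukin-22 and STAT3 is a well known inducer of both. Reg4, which lies apart from the others in sequence and in the genome, is known from enteroendocrine and deep crypt secretory cells. The same genes are also induced in the pancreas during injury, so pancreatic tissue attached to an intestinal sample would carry Reg transcripts of its own.

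5 of the members lie in 1 cluster on chromosome 6 (GRCm38), with Reg3d, a family gene outside the 6 members. In map order the cluster holds Reg3b, Reg3d, Reg3a, Reg2, Reg1 and Reg3g between positions 78370657 and 78468872, a span of 98.216 kb in which GENCODE M21 annotates 6 genes, all of them Reg genes. Reg3d and Reg3g lie on the minus strand and the others on the plus strand. Reg4 lies alone on chromosome 3, at 98222156 to 98236748. None of the members overlaps another annotated gene. The nearest pair by sequence was Reg1 and Reg2, with 78.9% identity over the aligned part of their longest coding transcripts, followed by Reg3a and Reg3b at 73.7% and Reg3b and Reg3g at 72.6%, while Reg4 was between 55.5% and 61.1% identical to the others. Stretches of 31 bases shared with another gene made up 0.446% of Reg3b and 0.231% of Reg3g, all between this pair, and none of Reg3a or Reg4. For Reg1 and Reg2 these shares were 5.7% and 16.5%, and the other genes that held most of them were no Reg genes, so the low values of Reg2 are uncertain if reads with several matches were counted.

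The promoters of 3 members are shown because these genes separate the patterns described below: Reg1, which differed most between the small intestine libraries, Reg3b, which was abundant in small intestine alone, and Reg3g, which was abundant in small intestine and lung. Each sequence is the 250 bases before the RefSeq transcription start (GRCm38.p6), read 5′ to 3′ on the strand of the gene. The windows are chr6:78425733-78425982 on the plus strand for Reg1, chr6:78370635-78370884 on the plus strand for Reg3b and chr6:78468875-78469124 on the minus strand for Reg3g. Some GENCODE transcripts of Reg1 and Reg3b start further upstream, within or before these windows. Capitals mark matches, on either strand, to TATAAA (the TATA box), TTCNNNGAA (a STAT element), CACCTG (an E-box of the kind bound by the acinar factor PTF1) and TTTATG (an element of the intestinal CDX factors).
Reg1: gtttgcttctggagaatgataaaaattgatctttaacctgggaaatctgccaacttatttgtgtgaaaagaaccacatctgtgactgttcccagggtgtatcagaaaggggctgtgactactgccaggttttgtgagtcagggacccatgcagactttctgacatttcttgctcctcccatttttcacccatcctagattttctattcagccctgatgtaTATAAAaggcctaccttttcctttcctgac
Reg3b: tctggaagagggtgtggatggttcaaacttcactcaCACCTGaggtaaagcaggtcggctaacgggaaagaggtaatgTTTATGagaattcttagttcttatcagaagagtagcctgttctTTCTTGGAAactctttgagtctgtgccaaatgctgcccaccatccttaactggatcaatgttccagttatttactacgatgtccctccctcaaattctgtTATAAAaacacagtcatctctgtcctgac
Reg3g: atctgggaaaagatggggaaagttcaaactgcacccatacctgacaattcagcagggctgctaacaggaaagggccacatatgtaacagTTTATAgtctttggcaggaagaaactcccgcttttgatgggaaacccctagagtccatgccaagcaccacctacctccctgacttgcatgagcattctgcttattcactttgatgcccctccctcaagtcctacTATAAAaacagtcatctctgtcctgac
A TATA box began 30 bases before the start in Reg1 and Reg2, 29 in Reg3b and 27 in Reg3g, and no match was found in these windows of Reg3a and Reg4, against 12.4% of the 32851 mouse promoters of this length with a match. Reg3g held a further match on the other strand at 161 bases. The STAT letters were found in Reg3b, at 129 bases before the start, and in no other member, against 7.02% of all promoters. CACCTG was found in Reg2, Reg3a, Reg3b and Reg4 (17.2% of all promoters) and TTTATG in Reg3b (10.8%). The matches did not overlap each other. Reg3b and Reg3g had the most similar windows of all pairs of members, with 173 identical bases of 247 aligned (70.0%).

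The library sizes behind the values lay between 9164188 and 21444669 reads, as recovered from the steps of the deposited FPKM (fragments per kilobase of exon, scaled by library size), and the recovered reads of the members were whole within 0.00281 reads. A count of 3 reads, taken as the floor of detection, was between 0.0662 FPKM for Reg3g and 0.397 for Reg3a, depending on the library. Floors and counting intervals cover counting error only. As a check of the labels with genes chosen after their values were seen, the lowest level in the labelled tissue and the highest elsewhere were 4472 and 55.1 FPKM for the enterocyte gene Fabp2, 11569 and 16.4 for the alveolar gene Sftpc, 554 and 2.74 for the kidney tubule gene Umod, and 29371 and 69.0 for Alb, which encodes serum albumin. Both small intestine libraries also held pancreatic acinar transcripts, whose values are given with the members they moved with.

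Reg transcripts were abundant in small intestine and, with the exception of Reg3g in lung, at most 3.40 FPKM elsewhere. The 6 members summed to 5253 FPKM in small intestine replicate 1 and 2806 in replicate 2, or 0.766% and 0.425% of all FPKM of the library. The sums were 144.7 and 122.8 in lung, 1.56 and 5.37 in kidney, and 5.20 and 5.28 in liver. Every member was higher in both small intestine libraries than in any of the other 6. The share of all genes with this order was not counted, so nothing is read from the count of members. In replicate 1, Reg1 was the gene of rank 30 and Reg3b that of rank 39 by FPKM, and in replicate 2 they ranked 66 and 55.

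**Figure D1:**
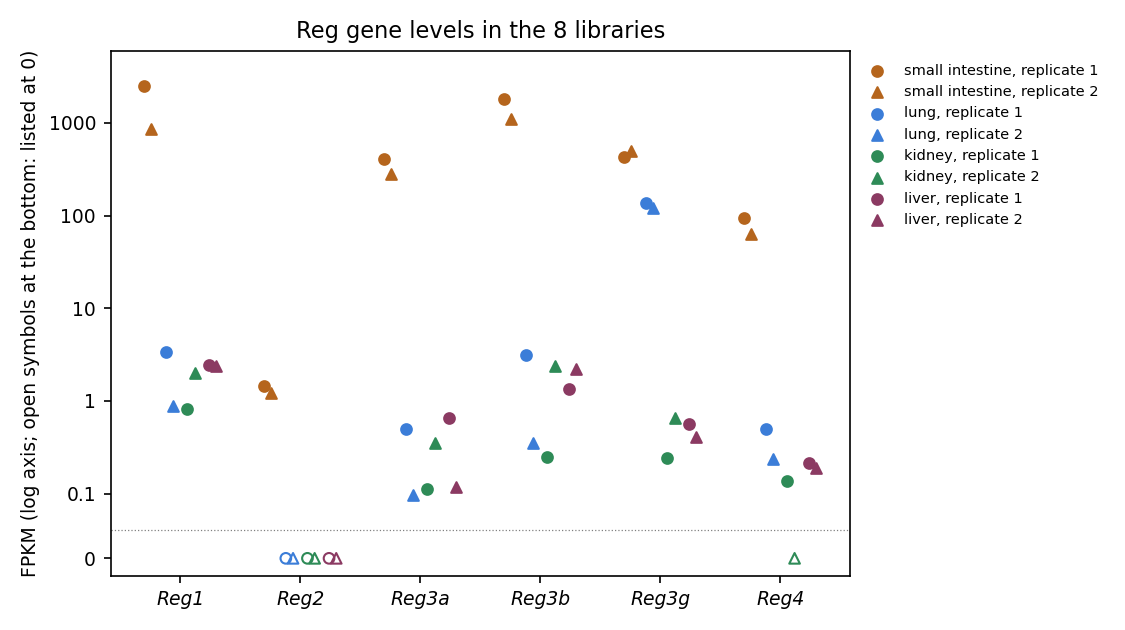
FPKM of the 6 Reg genes (vertical log axis; open symbols on the lowest line are listed at 0) in each of the 8 libraries, with circles for replicate 1 and triangles for replicate 2. The small intestine symbols lie highest for every gene, and the only other tissue with a member above 4 FPKM is lung, where Reg3g was at 137.2 and 121.2.

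Reg1, the pancreatic stone protein gene, was at 2497 and 857 FPKM in small intestine, 3.40 and 0.890 in lung, 0.825 and 1.98 in kidney, and 2.41 and 2.36 in liver. The small intestine libraries stood 252-fold or more above the highest other library, lung replicate 1. The range of lung overlapped those of kidney and liver, while both liver libraries were above both kidney libraries. On the log2(FPKM + 1) scale Reg1 was higher in small intestine, against the mean of the other tissues, by 9.01 ± 0.45 (SE, n = 2 per tissue; limma, adjusted p = 3.16e-06).

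Reg3b, whose product kills mainly Gram-negative bacteria, was at 1818 and 1103 FPKM in small intestine, 3.14 and 0.352 in lung, 0.245 and 2.38 in kidney, and 1.34 and 2.21 in liver. The lower small intestine library was 351-fold above the highest other library, and lung, kidney and liver overlapped. The difference from the mean of the other tissues was 9.22 ± 0.50 (SE; limma, adjusted p = 4.69e-06). Reg3a, another lectin of the gut lumen, was at 412 and 279.9 FPKM in small intestine and between 0.0975 and 0.661 in the other libraries, 3 of which held fewer than 3 reads. The lower small intestine library was 423-fold above the highest of these.

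Reg3g, whose product kills Gram-positive bacteria and keeps them off the intestinal surface, was at 430.5 and 501.5 FPKM in small intestine, 137.2 and 121.2 in lung, 0.243 and 0.656 in kidney, and 0.568 and 0.412 in liver. It was the member with 2 separate tissues of abundance, since neither lung library overlapped with any library of small intestine, kidney or liver. Its difference between small intestine and the mean of the other tissues, which includes lung, was 6.16 ± 0.15 (SE; limma, adjusted p = 1.88e-07).

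Reg4, a marker of secretory cells of the gut, was at 94.2 and 63.0 FPKM in small intestine, 0.502 and 0.236 in lung, 0.137 and 0 in kidney, and 0.214 and 0.190 in liver. The lower small intestine library was 125.6-fold above the highest other library. Reg2, a close relative of Reg1, was at 1.46 and 1.21 FPKM in small intestine, which stood for 13 reads in each library, and at 0 reads in the other 6. Against the highest floor of those libraries, 0.344 FPKM for 3 reads in 1 library, its mean in small intestine was at least 3.88-fold higher.

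All 6 members passed the threshold (adjusted p under 0.05 and a log2 difference over 1) as higher in small intestine against the mean of lung, kidney and liver, where 13.7% of the 16328 genes tested did so. The count carries little information, because the filter kept Reg2, Reg3a and Reg4 only through the small intestine libraries, so that they had to differ, and no p is given for them. For Reg1, Reg3b and Reg3g, exact permutation over the 28 ways to choose 2 of the 8 libraries gave p = 0.0357 each (two-sided), the smallest value this design allows. Against single tissues all 6 members were called higher in small intestine than in kidney (18.8% of all genes; 15% after median-of-ratios scaling), lung (10.1%; 15.8% after scaling) and liver (28.3%; 15.8% after scaling). The median difference of all genes was 0.18, -0.57 and 0.50 in these comparisons, on the log2(FPKM + 1) scale.

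**Figure D2:**
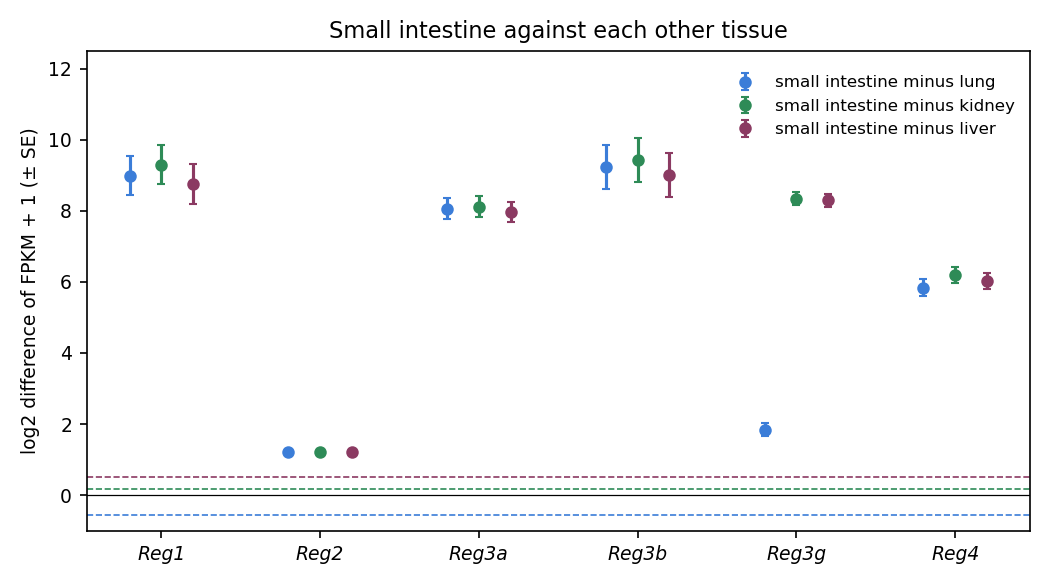
Difference in log2(FPKM + 1) between small intestine and lung, kidney or liver for each Reg gene (points, with the SE of the limma fit as bars), with the median difference of all genes tested as dashed lines of the same colours. Reg3g against lung, at 1.84, stands apart from its differences from kidney (8.34) and liver (8.29), and Reg2 is low in all 3, with a level near 1 FPKM.

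Lung was the other site of a Reg gene. Reg3g stood for 2832 and 3185 reads in the lung libraries and for 94.8% and 98.7% of the summed Reg FPKM there, and no other gene of the cluster was called higher in lung than in kidney or liver. The ratio of Reg3b to Reg3g was 4.22 and 2.20 in small intestine but 0.0229 and 0.00291 in lung. By the length of the longest coding transcript in place of all exons, it would be 2.25 and 1.17 in small intestine and 0.0122 and 0.00155 in lung. Lung was higher than kidney by 6.50 ± 0.19 (SE; limma, adjusted p = 6.51e-07) and higher than liver by 6.45 ± 0.19 (SE; adjusted p = 2.42e-07), or 287.6-fold and 263.7-fold on the FPKM scale. Small intestine was in turn higher than lung by 1.84 ± 0.19 (SE; adjusted p = 8.39e-05), or 3.61-fold. The median difference of all genes was 0.81 for lung against kidney and 1.13 for lung against liver, and between 0.05 and 0.06 after median-of-ratios scaling, under which both differences of Reg3g remained past the threshold.

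Reg3g was the only member called as higher in lung than in kidney (41.4% of all genes called higher; 17.3% after median-of-ratios scaling) or in liver (55.5%; 19.4% after scaling). Between kidney and liver, limma called 0 of 6 members at an adjusted p under 0.05 and 0 at an unadjusted p under 0.05, and limma-voom on the recovered reads also gave 0 and 0, where 23.1% of all genes were called in either direction (70.1% of these calls were higher in kidney, and 51.9% after scaling). Reg4 was at 0.502 and 0.236 FPKM in lung against 0.137 and 0 in kidney, which stood for 5, 3, 3 and 0 reads, and its difference of 0.35 ± 0.23 (SE; limma, adjusted p = 0.203) was called under a pseudocount of 0.1 (1.55, adjusted p = 0.0267) and by limma-voom (2.49, adjusted p = 0.0475). These values rest on 0 to 5 reads.

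**Figure D3:**
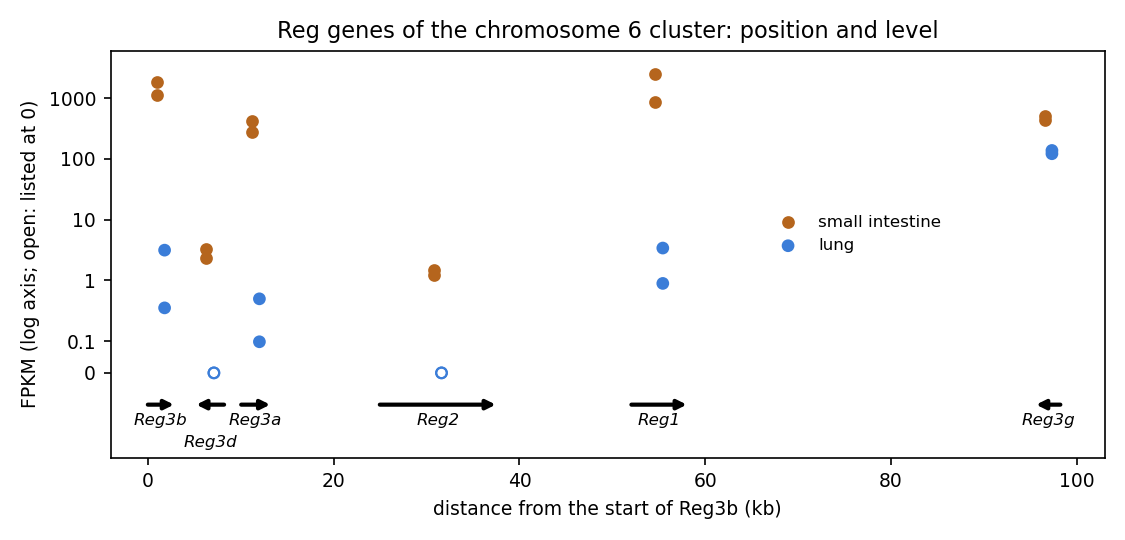
Position of the 6 genes of the Reg cluster (horizontal axis, kb from the start of Reg3b; arrows give the direction of transcription) and their FPKM (vertical log axis) in the 2 small intestine and 2 lung libraries, with open circles for values listed at 0. Reg1 and Reg3b are the highest in small intestine, followed by Reg3g and Reg3a, and Reg3g is the only one high in lung.

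Among the members, levels in small intestine spanned from 1.33 FPKM for Reg2 to 1677 for Reg1 as means of both libraries. The SD over the libraries was 1160 for Reg1, 506 for Reg3b, 50.2 for Reg3g, 93.2 for Reg3a, 22.1 for Reg4 and 0.179 for Reg2 (n = 2 each). Reg1 was above Reg3b in replicate 1 and below it in replicate 2, so their order is not fixed. Reg3g was above Reg3a in both, followed by Reg4 and Reg2. This order depends on the length by which reads are divided. The deposited FPKM of Reg3g match a length of 2114 bases, all annotated exons including those of a transcript with a retained intron, while its coding transcript has 771 bases. By the length of the longest coding transcript, Reg3g would be at 1180 and 1375 FPKM in small intestine, Reg3b at 2651 and 1608, and Reg1 unchanged, which puts Reg3b above Reg1 in both libraries and Reg3g above Reg1 in replicate 2. The same lengths would put Reg3g in lung at 376 and 332 FPKM. Ratios of 1 gene between libraries do not change with its length.

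The small intestine libraries differed from each other in their Reg transcripts, and not by 1 common factor. Reg1 was 2.91-fold higher in replicate 1 (95% exact counting interval 2.84 to 2.99; 21132 and 8777 reads). Reg3b was 1.65-fold higher (1.61 to 1.69), Reg4 1.50-fold (1.36 to 1.65) and Reg3a 1.47-fold (1.40 to 1.55). Reg3g went the other way, at 0.859 of its level in replicate 2 (0.835 to 0.883), and the ratio of Reg2, 1.21, had an interval of 0.517 to 2.83 that includes no difference. With 1 library on each side there is no test, and the intervals say nothing about the spread between mice.

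Over the 11454 genes at 1 FPKM or more in both small intestine libraries, the median log2 ratio of replicate 1 to replicate 2 was 0.06, and the 5th and 95th percentiles were -0.62 and 0.73. Reg1 was the only member more than 2-fold higher in replicate 1 (1 of 6), against 2.13% of these genes, and 0.515% of genes had a higher ratio. For Reg3b, Reg4 and Reg3a, the shares of genes with a higher ratio were 5.19%, 8.6% and 9.43%, and for Reg3g the share with a lower ratio was 22.6%. The summed Reg FPKM had a log2 ratio of 0.90, or 0.50 without Reg1.

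**Figure D4:**
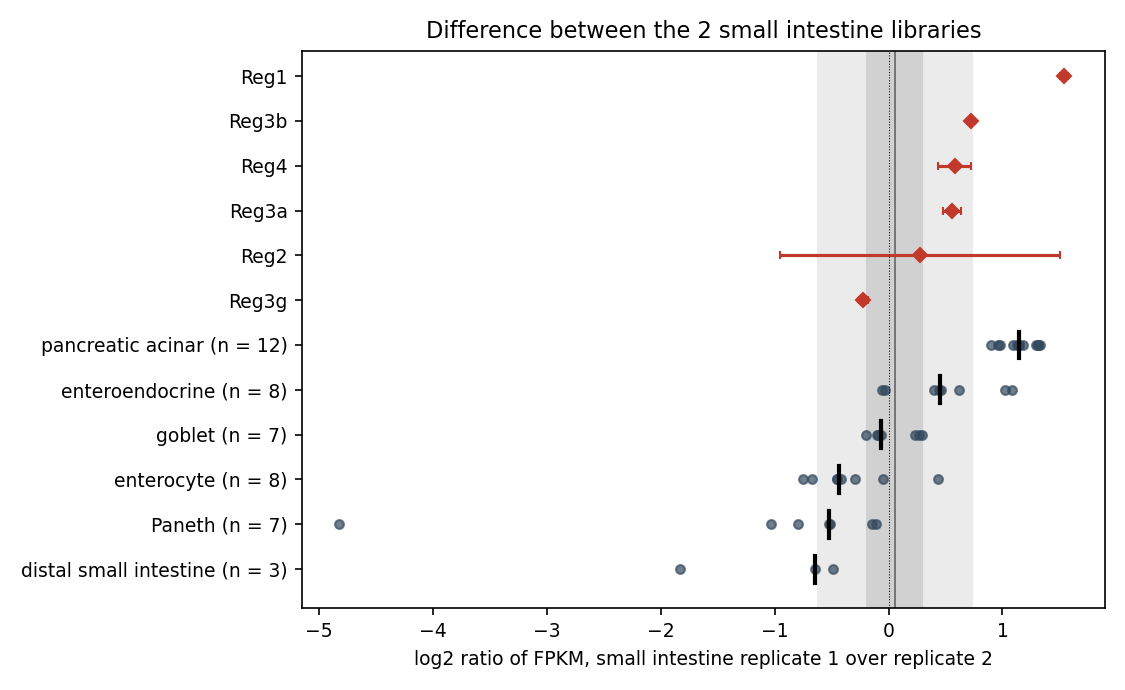
Log2 ratio of FPKM, small intestine replicate 1 over replicate 2 (horizontal axis), for the 6 Reg genes (diamonds, with 95% exact counting intervals) and for the genes of 6 lists at 1 FPKM or more in both libraries (points, with the median as a bar). Grey bands mark the 5th to 95th and the 25th to 75th percentiles of 11454 genes. Reg1, at 1.54, lies above all 12 acinar genes, while Reg3g, at -0.22, lies on the other side of 0, as do 7 of 8 enterocyte and all 7 Paneth genes.

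Pancreatic acinar genes moved in the direction of Reg1. All 12 genes of the list, which includes Ctrb1 (chymotrypsinogen), Prss2 (trypsinogen), Pnlip (lipase) and Clps (colipase), were higher in replicate 1, with ratios of 1.87 to 2.52 and a median of 2.21. Ctrb1 was at 1009 and 445.8 FPKM, Prss2 at 450.0 and 203.9, Pnlip at 333 and 169.2, and Clps at 292.5 and 156.4. The list summed to 3210 and 1462 FPKM in small intestine and to between 2.28 and 7.44 elsewhere. All 12 genes were called higher in small intestine against the mean of the other tissues, where 13.7% of all genes tested were. But 10 of the 12 (all but Ctrb1 and Sycn) passed the filter only through the small intestine libraries and so had to differ. The ratio of Reg1 to this sum was 0.778 in replicate 1 and 0.586 in replicate 2. Of the islet genes, the insulin genes Ins1 and Ins2 were at 0.210 and 0 FPKM and at 0.733 and 0.135. Against the other tissues' mean, 2 of the 3 tested islet genes were called higher in small intestine (13.7% of all genes). They were Gcg (13.1 and 16.2 FPKM) and Pdx1 (4.85 and 1.76), which the gut also expresses and which passed the filter only through small intestine. The part of acinar transcripts in the level of any member was not tested.

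The enterocyte and Paneth lists were mostly lower in replicate 1, the goblet list was split, and the enteroendocrine list was mostly higher there. The brush border and transport genes of enterocytes were lower in replicate 1 for 7 of 8 genes, with a median ratio of 0.739, as for Fabp2 (4472 and 6134 FPKM), Anpep (845 and 1128) and Alpi in the opposite direction (639.7 and 474). All 7 Paneth cell genes were lower in replicate 1 (median 0.696), among them the defensins Defa24 (8137 and 11626) and Defa17 (3753 and 4146), Lyz1 (1910 and 3323) and Itln1 (913 and 1311). Goblet cell genes were split, 3 of 7 being higher in replicate 1 (median 0.955), Tff3 (1182 and 967), Agr2 (199.8 and 169.6) and Fcgbp (146.2 and 121.2), while Zg16 was at 1530 and 1645 and Spink4 at 276 and 289. Of the enteroendocrine genes 6 of 8 were higher in replicate 1 (median 1.37), including Gip (132.6 and 65.4), Chgb (44.6 and 29.1), Sct (42.9 and 32.5) and Cck (41.1 and 19.4). The genes of these lists were counted by direction alone. The counting intervals of Mmp7 (0.812 to 1.05), Spink4 (0.886 to 1.03), Neurod1 (0.6205 to 1.53) and Tac1 (0.709 to 1.30) include no difference. Each of the 8 enterocyte, 7 Paneth, 7 goblet and 8 enteroendocrine genes was called higher in small intestine against the mean of the other tissues. Of all genes tested, 13.7% were. But some of the listed genes passed the filter only through small intestine and had to differ. These were 4 enterocyte genes (Alpi, Lct, Sis and Cdh17), 3 Paneth genes (Mmp7, Ang4 and Defa21), 2 goblet genes (Muc2 and Fcgbp) and 7 enteroendocrine genes, all but Cck.

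Genes with a known gradient along the gut also differed between these libraries. The ileal bile acid genes Fabp6, at 0.223 and 25.4 FPKM, and Slc10a2, at 0.309 and 1.62, were lower in replicate 1, and so were Slc51a (91.4 and 128.5), Slc51b (26.2 and 41.0) and Nts (5.31 and 18.9). Of the 6 proximal genes at 1 FPKM or more in both libraries, Pdx1 (4.85 and 1.76), Slc40a1 (7.54 and 4.75) and Onecut2 (5.07 and 3.87) were higher in replicate 1 beyond their counting intervals. Gata4 (25.6 and 25.2) and Bco1 (1.34 and 1.25) had ratios of 1.02 and 1.075, with intervals of 0.930 to 1.11 and 0.6465 to 1.781 that include no difference, and Osr2 was lower (2.45 and 10.4). The proximal list summed to 47.5 and 47.7 FPKM. Against the mean of the other tissues 4 of 7 proximal genes (Gata4, Onecut2, Pdx1 and Osr2) were called higher. Of the 4 distal genes tested 3 were called higher (Slc51a, Slc51b and Nts) and 1 lower (Slc10a2). Of all genes 13.7% were called higher and 11.3% lower. Slc10a2 was at 16.9 and 9.46 FPKM in kidney and at 6.89 and 5.09 in liver. Among the called genes of both lists, Pdx1 and Nts passed the filter only through small intestine. Segmental genes and acinar transcripts differed between the same libraries and cannot be told apart as correlates of the Reg ratios.

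Outside small intestine, the low values of Reg1 and Reg3b had both extremes in the same libraries as the median acinar gene, which Reg3a and Reg4 did not. These extremes were not particular to acinar genes. Gut epithelial genes such as Zg16 and Defa17 were also highest in lung replicate 1 and lowest in kidney replicate 1. Others differed, such as Tff3, lowest in lung replicate 2, and Fabp2, highest in liver replicate 2. As a share of the small intestine mean, Reg1 was lowest in kidney replicate 1 (0.0492%) and highest in the first lung library (0.203%), and the median acinar gene was between 0.0592% and 0.286% in the same pair of libraries. The lowest and highest shares of Reg3b, 0.0168% and 0.215%, were found in that pair too. Reg3a was instead lowest in lung replicate 2 (0.0282%) and highest in liver replicate 1 (0.191%). Reg4 was highest in lung replicate 1 as well (0.638%), but it was at 0 in kidney replicate 2, where the median acinar gene was at 0.177%. The values of Reg3a and Reg4 rest on 0 to 5 reads, with the lowest under the floor of 3 reads, so their order of libraries is uncertain. Reg3g was at 29.4% and 26% in lung, against 0.0521% to 0.141% in kidney and liver. In the lung libraries, where Reg3b was at 3.14 and 0.352 FPKM and the median acinar share at 0.286% and 0.093%, Reg3g was at 137.2 and 121.2 FPKM. What part of the low values came from RNA of other samples was not tested.

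Genes of the signalling pathway known to induce Reg3b and Reg3g did not share 1 direction. Of 18 genes of interleukin-22 and STAT3 signalling 13 were tested, and 3 were called higher in small intestine against the mean of the other tissues: Il10rb, a receptor chain (11.7 and 17.0 FPKM in small intestine), Socs3, a target of STAT3 (6.91 and 8.16), and Il18 (101.3 and 77.0), a cytokine of the epithelium. Against lung alone, Il18 was called higher (17.98 and 16.78 FPKM in lung), but Il10rb and Socs3 were not. Il10rb was at 13.77 and 12.49 FPKM in lung, and Socs3 at 10.8 and 14.89. The interleukin-6 receptor genes Il6ra (0.161 and 0.276 in small intestine) and Il6st (2.54 and 2.20) were called lower against the mean of the other tissues. Of all genes tested 13.7% were called higher and 11.3% lower, and with 13 genes nothing is read from these counts about the pathway. Il22 was at 0 reads in all 8 libraries, which is not detectable at this depth, and its receptor gene Il22ra1 was at 0.790 and 2.96 FPKM in small intestine. Stat3 itself was at 12.2 and 13.6 FPKM in small intestine and 26.3 and 26.2 in lung. Jak1, a kinase of these receptors, was at 12.6 and 14.2 FPKM in small intestine and 30.2 and 32.9 in lung, and was not called against the mean of the other tissues but was called lower than in lung (-1.18 on the log2(FPKM + 1) scale; limma, adjusted p = 0.00121). The list's median difference was 0.37, beside a median of -0.01 over all genes tested.

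Extl3, proposed as a receptor of Reg proteins, was at 2.73 and 2.11 FPKM in small intestine, 9.87 and 12.1 in lung, 3.62 and 2.09 in kidney, and 2.07 and 2.41 in liver. Both lung libraries were above the other 6, and the difference between small intestine and lung was -1.81 on the log2(FPKM + 1) scale (limma, adjusted p = 0.000376), whereas every Reg gene was highest in small intestine. Of 10 other secreted lectins and defence proteins of the gut, all 8 tested were called higher in small intestine against the mean of the other tissues, where 13.7% of all genes were, and 2 of the 8 (Pla2g2a and Dmbt1) passed the filter only there. The count does not hold against each tissue, since Pglyrp1 was at 29.8 FPKM in both small intestine libraries and at 41.0 and 28.3 in lung. The highest were Lypd8, which keeps flagellated bacteria from the epithelium (1492 and 1164 FPKM), Pigr, the transporter of IgA (1397 and 1073), Lgals4, a galectin (921 and 964), and Sprr2a1 (665 and 815).

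Genes outside the family with the most similar levels over the 8 libraries were found by Pearson correlation of log2(FPKM + 1), given as a description, since the points share their libraries and are dominated by the step from small intestine to the other tissues. For Reg1 they were Ctrb1 (r = 0.9991) and the pancreatic amylase genes Amy2a2 and Amy2a3 (r = 0.9982 each), near-identical copies whose reads may be split between them. For Reg3b they were Rbp2, a retinol-binding protein of enterocytes (r = 0.9989), the goblet cell lectin Zg16 (r = 0.9981) and AY761184 (r = 0.998). For Reg3a they were Gm5485, Sct, the gene of the hormone secretin, and Olfr165 (r = 0.9991 to 0.9996), and for Reg4 Gm44985, Trpm5, a channel of tuft cells, and Cst6 (r = 0.999 to 0.9992). For Reg3g they were an immunoglobulin kappa variable segment (r = 0.9982), the cilium assembly gene Dnaaf1 (r = 0.998) and Espl1, which encodes separase (r = 0.9977), and their levels in lung were 4.88 and 4.90, 2.18 and 2.23, and 0.958 and 0.971 FPKM. For Reg2 the 3 genes, Gm36520, Pla2g10os and 1810065E05Rik, had a rounded r of 1, with levels of 1.02 to 2.31 FPKM in small intestine and 0 elsewhere.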

How the data were processed

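RNA of 8 libraries was analysed, 2 each from small intestine, lung, kidney and liver, grouped by the sample labels. The authors selected reads by sample index with bbduk, mapped them with STAR 2.5.3a to the mouse genome of Ensembl release 75 (GRCm38) and deposited FPKM values, made with the fpkm function of DESeq2. How reads were counted on genes, the use of strand and the treatment of reads with several matches are not given in the sources used here. FPKM are relative, so a few very abundant transcripts lower all other genes of a library.

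Of 52195 symbols 99.3% matched GENCODE M21, which gave positions and exon lengths. Multiplied by these lengths, 94.5% to 96.1% of values under 50 reads were whole within 0.02 reads, and the reads so recovered gave floors and exact 95% counting intervals. Genes at 1 FPKM or more in at least 2 libraries (16328) were fitted on log2(FPKM + 1) over all 8 libraries with limma 3.58.1 (trend) in R 4.3.3, with Benjamini-Hochberg adjustment. Genes were called where the adjusted p was under 0.05 and the log2 difference exceeded 1 in size. Promoters came from RefSeq. Python 3.11.15, numpy 2.4.6, pandas 2.3.3, scipy 1.17.1 and matplotlib 3.10.9 were used.

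Besides the members, the text names up to 4 genes of each list with the highest small intestine mean, all genes of counts of 5 or fewer, and the 3 genes most similar to each member. Ins1, Il22 and Il22ra1 were named after their values were seen. Members and lists were chosen with earlier results of these data known, and the comparison of lengths and the label check were added after seeing the data. Alternatives changed the pseudocount, filter, scaling, trend, block, tool, length and libraries.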

Additional observations from a re-analysis of the deposited data

How the results depend on the processing

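The count of 6 members called higher in small intestine was the same against the mean of the other tissues, kidney, lung and liver under the alternatives run, including no filter and leaving out each library, except the filter on a mean FPKM of 1, which left Reg2 untested and gave 5 of 5 in each comparison. The log2 difference of Reg3g from lung was between 1.67 and 2.62, and those of Reg1, Reg3b and Reg3g from the mean of the other tissues stayed past the threshold. The fitted difference of Reg2, whose level is near 1 FPKM, ranged from 1.14 to 5.06 where it was tested. The sum of Reg FPKM in small intestine, with a log2 ratio of 0.90 between replicates 1 and 2, moved by more than its counting interval: to 0.83 under median-of-ratios scaling, 0.93 under quantile normalization, 0.86 without mitochondrial genes and their pseudogenes, and 0.71 with the length of the coding transcript. It was 0.50 without Reg1, 0.94 without Reg3a, 1.01 without Reg3b and 1.07 without Reg3g. With the filter on a mean FPKM of 1, Reg3d was not tested either, and fewer enteroendocrine and islet genes were called, since fewer were tested. The pseudocount of 0.1 raised the genes called in small intestine against the other tissues' mean, from 2244 to 3098 higher and from 1843 to 2991 lower. A replicate block on the shared numbers gave 6 members called in each comparison with small intestine and 2 calls between lung, kidney and liver, as without it. The numbers are not shown to pair samples, since the differences between replicates correlated between tissues by -0.22 to 0.05. Depth limits Reg2, Reg4 and Reg3a outside small intestine, where 3 to 6 libraries held fewer than 3 reads.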

Other observations

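Reg3d, the cluster gene between Reg3b and Reg3a, was at 3.28 and 2.37 FPKM in small intestine (24 and 21 reads) and at 0.0739 FPKM, or 1 read, in kidney replicate 2, with 0 reads in the other 5 libraries. It passed the filter only through small intestine, so that it had to differ, and no test is given. Its ratio between the small intestine libraries, 1.38, had an interval of 0.737 to 2.61.

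Defa21 and Nos2 were the listed genes with the largest differences between the small intestine libraries after Fabp6. Defa21, a Paneth cell defensin of a family of near-identical copies, was at 49.6 and 1408 FPKM, and Nos2, an inducible enzyme of nitric oxide synthesis, at 0.339 and 4.68. Il22ra1 was at 0.790 and 2.96 FPKM, the same direction as Reg3g and the opposite of Reg1 and Reg3b. Its list was split. Of the 12 interleukin-22 and STAT3 genes at 1 FPKM or more in both libraries, 7 were higher in replicate 2. The other 5 (Il18, Il1b, Il6st, Il17ra and Myd88) were higher in replicate 1. Defa21, Nos2 and Il22ra1 were chosen after their values were seen.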
